A study of Homo sapiens with 6 samples.

Results

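Alcohol, aldehyde and flavin oxidizing enzymes turn alcohols, aldehydes, amines and foreign compounds into more oxidized products, and 9 of their genes were followed here among the 57659 genes of the deposited count files. They are ADH1B and ADH5 (alcohol dehydrogenases), FMO2 and FMO4 (flavin-containing monooxygenases), ALDH1A1, ALDH1A3, ALDH1B1 and ALDH2 (aldehyde dehydrogenases) and CYP1B1 (a cytochrome P450). The genes were picked by symbol with earlier results of this same comparison known, so their fold changes and adjusted p-values below describe them and are not independent evidence. The cells were IMR90, a line of primary human fetal lung fibroblasts kept in medium with serum. All 6 libraries came from cells expressing a short hairpin RNA, directed against luciferase in the 3 control libraries and against macroH2A1, a histone H2A variant, in the 3 knockdown libraries. The series calls the 3 libraries of a group biological replicates, and 1 cell line was used throughout.

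Alcohol dehydrogenases are zinc enzymes that pass electrons from an alcohol to NAD+ and yield an aldehyde or ketone, which aldehyde dehydrogenases then oxidize to a carboxylic acid. The same pair of steps turns ethanol into acetate and retinol into retinoic acid. Flavin-containing monooxygenases and cytochrome P450 enzymes sit in the endoplasmic reticulum and add an oxygen atom from O2 to drugs, toxicants and some hormones.

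The clearest differences were in ADH1B and FMO2, which rose 5.51-fold and 8.67-fold in the knockdown, while ADH5, the most abundant of the 9 per length, had nearly the same level in both groups. ALDH2 rose 1.72-fold. CYP1B1, ALDH1B1, ALDH1A3 and ADH5 were not called, and FMO4 and ALDH1A1 had too few reads to test. A gene was called where its p-value from edgeR's quasi-likelihood fit of all genes, adjusted after Benjamini and Hochberg, was under 0.05. Of the 7 members tested, 3 were called, each of them higher and none lower, where 8.21% of all 13445 genes tested were called, 3.90% higher and 4.31% lower. FMO2 passed the filter on low counts only through its knockdown libraries, so the count of 3 carries no weight of its own.

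Reads of MACROH2A1 itself were fewer in each knockdown library. In counts per 1000000 (CPM, mean ± SD over 3 libraries), the control libraries had 88.3 ± 3.62 and those of the knockdown 40.9 ± 2.51, or 46.3% of the control (edgeR adjusted p = 0.000917). Libraries held 3741087 to 6421605 reads assigned to genes, and 3 reads then correspond to 0.467 to 0.802 CPM. Summed levels of 14 fibroblast markers ran from 10771 to 12366 CPM in the control and from 15248 to 16620 CPM in the knockdown, and 6 of the 13 tested rose. These were COL1A2, COL3A1, DCN, LUM, PDGFRA and TCF21, where 3.90% of all genes tested were higher. COL1A1, PDGFRB, VIM, THY1, FAP, FN1 and POSTN were not called, and VIM was at 1715 ± 75.6 and 1715 ± 21.9 CPM (control and knockdown). In such bulk RNA, more cells of a kind and more RNA per cell cannot be told apart.

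Promoter sequences are shown for ADH1B and ADH5, relatives in the alcohol dehydrogenase cluster of chromosome 4 of which the first rose and the other was not called, and for ALDH1B1, the 1 tested member with a negative fold change. Each runs 5′ to 3′ from 250 bases before to 50 bases after the RefSeq start site on GRCh38.p14. Capitals mark 6 short motifs, each searched on both strands, so that a hit on the other strand appears as its reverse complement. They were the TATA box with the letters TATAAA, the box named CCAAT for its letters, the GC box with the letters GGGCGG, the E-box with the letters CACGTG, the core of the xenobiotic response element with the letters GCGTG and the nuclear receptor half-site with the letters AGGTCA. No motif holds another, though hits may share bases. ADH1B lies at chr4:99321352-99321651, ADH5 at chr4:99088739-99089038, both on the minus strand, and ALDH1B1 at chr9:38392452-38392751 on the plus strand.
ADH1B: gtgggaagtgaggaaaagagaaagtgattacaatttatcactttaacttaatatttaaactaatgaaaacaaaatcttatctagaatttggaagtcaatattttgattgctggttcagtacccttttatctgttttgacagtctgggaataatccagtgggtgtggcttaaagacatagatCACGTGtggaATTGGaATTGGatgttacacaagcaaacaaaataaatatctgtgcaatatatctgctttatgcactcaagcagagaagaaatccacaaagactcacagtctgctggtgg
ADH5: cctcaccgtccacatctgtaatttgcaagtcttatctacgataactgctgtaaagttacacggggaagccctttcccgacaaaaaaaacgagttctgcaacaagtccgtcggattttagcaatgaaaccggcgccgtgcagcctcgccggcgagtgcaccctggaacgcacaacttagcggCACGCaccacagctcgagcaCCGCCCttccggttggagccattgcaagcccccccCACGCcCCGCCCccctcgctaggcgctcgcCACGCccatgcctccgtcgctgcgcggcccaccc
ALDH1B1: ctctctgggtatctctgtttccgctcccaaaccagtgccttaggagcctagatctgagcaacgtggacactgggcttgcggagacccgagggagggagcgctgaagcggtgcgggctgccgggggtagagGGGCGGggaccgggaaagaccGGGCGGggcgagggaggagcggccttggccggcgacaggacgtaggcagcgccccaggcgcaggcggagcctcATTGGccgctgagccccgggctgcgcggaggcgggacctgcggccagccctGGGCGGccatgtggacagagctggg

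The ADH1B promoter held 1 CG dinucleotide and 35% G and C, against a median of 14 CG dinucleotides and 58.7% over all 35116 promoters of the same length. The promoter of ADH5 held 29 CG dinucleotides and 61.3% G and C, and that of ALDH1B1 27 and 71.3%. Ranked by CG dinucleotides, 3.96% of all promoters had fewer than ADH1B and 75.8% fewer than ADH5. Upstream of ADH1B stood 1 E-box, a motif found in 7.26% of all promoters, and 2 CCAAT boxes on the reverse strand, a motif found in 34.6%. The ADH5 promoter held 2 GC boxes, present in 45.0% of promoters, and 3 xenobiotic response element cores, present in 36.5%. In ALDH1B1 the search found 3 GC boxes and 1 CCAAT box. None of the 3 windows held TATAAA (11.5% of promoters) or AGGTCA (13.8%). RefSeq promoters matched 6 of the 9 members; FMO2, ALDH2 and CYP1B1 are named only. A match is a description of the letters and not evidence of binding.

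ADH1B (ENSG00000196616, chromosome 4) encodes a class I alcohol dehydrogenase, abundant in liver and adipose tissue, that oxidizes ethanol and retinol. Its counts were 64, 35 and 25 in control replicates 1, 2 and 3 and 231, 213 and 175 in the knockdown replicates. At 10.1, 8.0 and 6.61 CPM in the control and 45.7, 46.3 and 46.9 CPM in the knockdown, the groups lay far apart and the knockdown libraries differed from each other by little. The log2 fold change was 2.46 (SE 0.15, 95% interval 2.12 to 2.81, edgeR adjusted p = 0.000758), and the call held in all 16 alternative settings, which changed the filter, the scaling, the tool or the design or left out 1 library. Reads that align to several places, 64.4% to 68.8% of those listed per library, were not assigned to genes, and ADH1A and ADH1C are close relatives of ADH1B, so its absolute level is uncertain. ADH1C also overlaps ADH1B on the same strand in GENCODE 29.

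ADH5 (ENSG00000197894, chromosome 4), the class III alcohol dehydrogenase found in nearly all tissues, oxidizes the formaldehyde adduct of glutathione and reduces S-nitrosoglutathione. It had 676, 422 and 444 control counts and 590, 547 and 434 knockdown counts. Its levels were 107, 96.5 and 117 CPM in the control and 117, 119 and 116 CPM in the knockdown, so the groups overlapped through control replicate 3. The log2 fold change was 0.13 (SE 0.09), with a 95% interval from -0.07 to 0.34 (edgeR adjusted p = 0.399), which limits an increase to 1.26-fold.

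**Figure D1:**
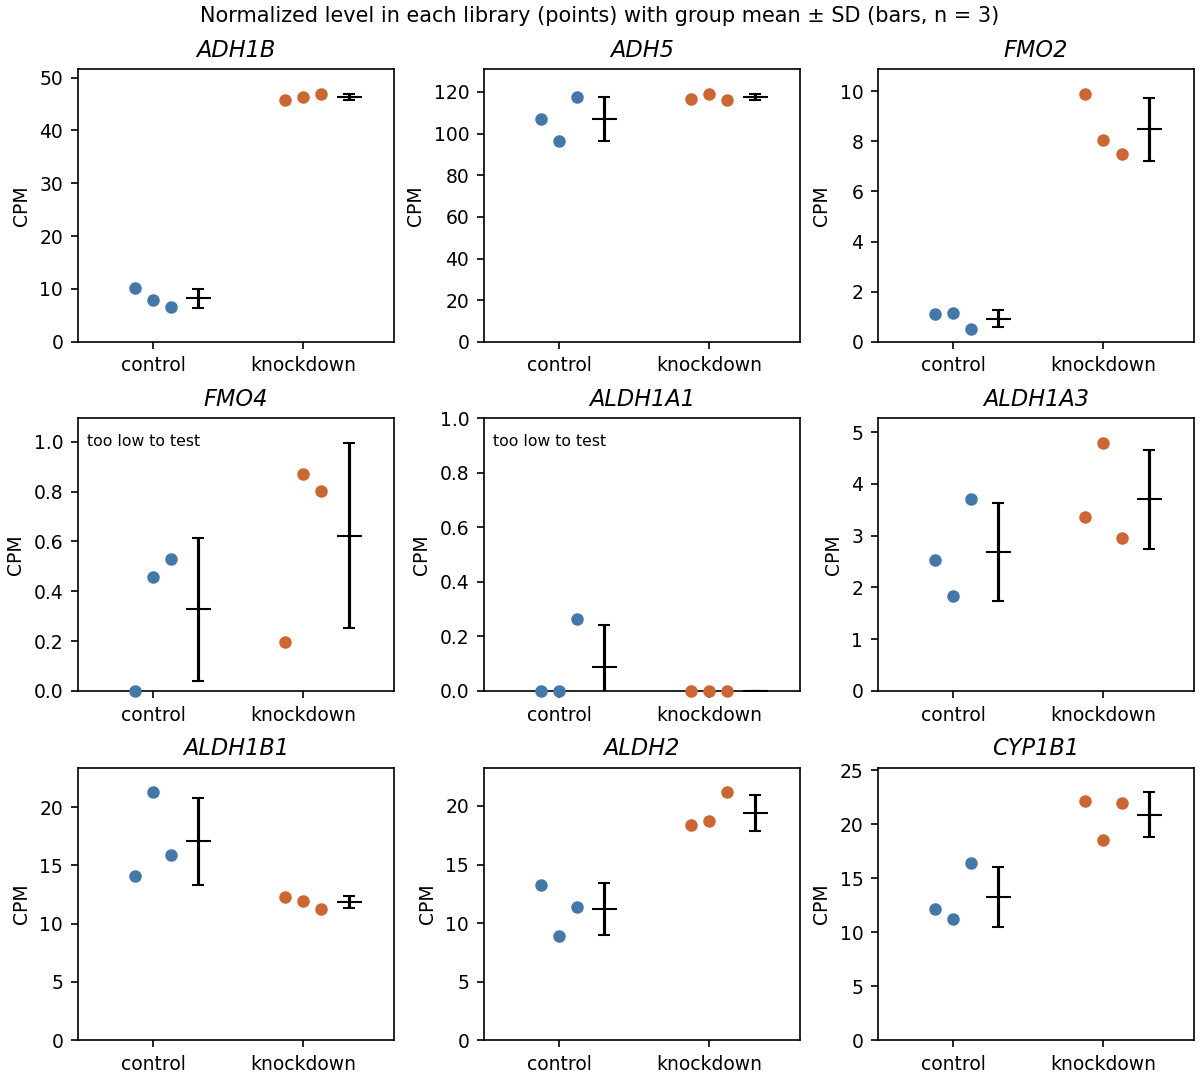
Level of each of the 9 genes in counts per 1000000 (vertical axes, starting at 0) in 3 control and 3 knockdown libraries (points), with the group mean ± SD beside them (bars). ADH1B, FMO2, ALDH2 and CYP1B1 have all knockdown points above all control points, ALDH1B1 has them below, and those of the other 4 genes overlap. Groups lay apart in this way in 30.4% of all genes tested.

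ADH1B took a larger part of its family's reads in the knockdown. Its share of all alcohol dehydrogenase counts was 8.64%, 7.66% and 5.32% in control replicates 1, 2 and 3 and 27.9%, 27.9% and 28.7% in the knockdown replicates. The highest control share had an exact 95% binomial interval of 6.71% to 10.9% and the lowest knockdown share one of 24.7% to 31.2%; intervals and floors cover counting error only. Such a share needs no scaling between libraries. The summed level of the 7 genes of the family ran from 104 to 124 CPM in the control and from 163 to 166 CPM in the knockdown. Besides ADH1B and ADH5, few reads were assigned to genes of the family. Reads that align to several places were left out, so low counts of close relatives such as ADH1A and ADH1C cannot show silence. The share of ADH1B covers assigned reads only. ADH1A had 4 reads in all libraries together, all in knockdown, ADH1C had 1 control read and 6 knockdown reads, ADH4 and ADH7 had 1 read each, and ADH6 had none in any library.

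FMO2 (ENSG00000094963, chromosome 1) is known as a lung form in many mammals and belongs to a family that oxidizes nitrogen and sulfur atoms of amines and thioureas. Only its RNA was measured here, and whether these cells make an active enzyme was not tested. FMO2 had 7, 5 and 2 counts in the control and 50, 37 and 28 in the knockdown. These counts equal 1.11, 1.14 and 0.529 CPM against 9.89, 8.05 and 7.5 CPM, so the lowest knockdown library stood well above the highest control library. The fitted log2 fold change was 3.12 (SE 0.30, 95% interval 2.40 to 3.83, edgeR adjusted p = 0.00243). As the control group held 14 reads and the knockdown group 115, the ratio of summed counts was 8.88 with an exact 95% counting interval of 5.08 to 16.8. The call held in all 16 alternative settings.

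FMO4 (ENSG00000076258) lies close to FMO2 in the gene cluster on chromosome 1, and what its enzyme does is less well known. It had 0, 2 and 2 control counts and 1, 4 and 3 knockdown counts, too few to test. The ratio of summed counts, 8 over 4, was 2.16 with a counting interval from 0.579 to 9.82, so a difference was not detectable at this depth. Of 2 others of the family, FMO5 had 7, 6 and 3 control and 10, 6 and 3 knockdown counts, and FMO1 had none. The ratio of summed counts of FMO5 was 1.28 (0.626 to 2.67). Whether FMO2 differs from its relatives in response was not tested.

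**Figure D2:**
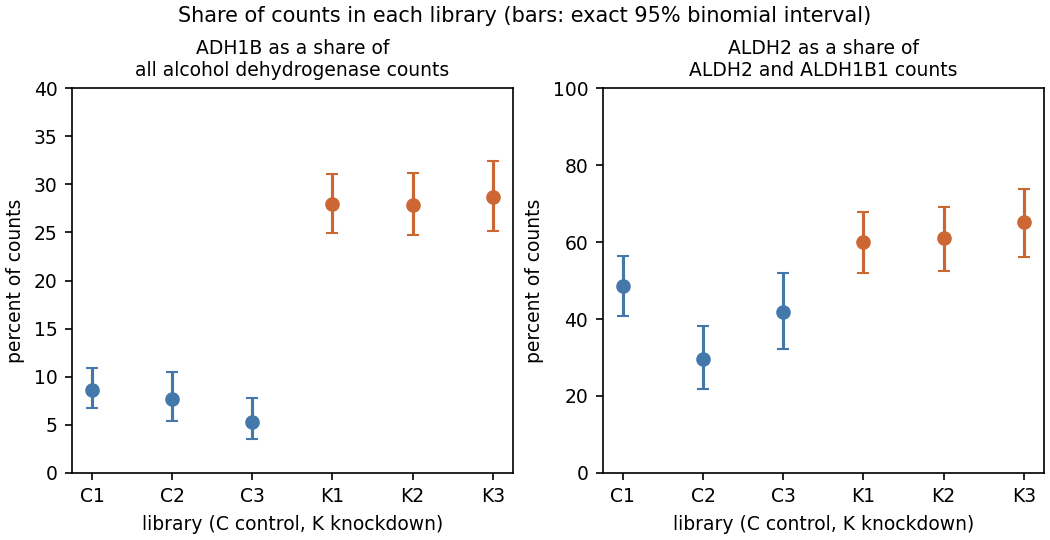
Percent of counts (vertical axes) taken by ADH1B, of all alcohol dehydrogenase counts, and by ALDH2, of the sum with ALDH1B1, in 3 control (C1 to C3) and 3 knockdown libraries (K1 to K3), with exact 95% binomial intervals. In both panels each knockdown point lies above each control point, and the intervals of the groups are fully apart only for ADH1B.

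ALDH2 and ALDH1B1 are both mitochondrial and both oxidize acetaldehyde, and their values went in opposite directions. ALDH2 (ENSG00000111275, chromosome 12), the enzyme that clears most acetaldehyde after ethanol intake, had 84, 39 and 43 control counts and 93, 86 and 79 knockdown counts. At 13.3, 8.92 and 11.4 CPM against 18.4, 18.7 and 21.2 CPM the groups did not overlap, as in 30.4% of all genes tested. Control replicate 2 was the lowest. The log2 fold change was 0.78 (SE 0.17, 95% interval 0.39 to 1.18, edgeR adjusted p = 0.0369). This call was lost in 6 of 16 alternative settings, with adjusted p-values from 0.00153 to 0.111 over all 16: with a replicate block (0.0812) and without any library other than control replicate 1 (control replicate 2, 0.0816; control replicate 3, 0.0977; knockdown replicates 1, 2 and 3, 0.0838, 0.0923 and 0.111). Its log2 fold change stayed between 0.64 and 0.94.

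ALDH1B1 (ENSG00000137124, chromosome 9), which also acts on retinal and on aldehydes from lipid peroxidation, had 89, 93 and 60 control counts and 62, 55 and 42 knockdown counts. The levels were 14.1, 21.3 and 15.9 CPM in the control and 12.3, 11.96 and 11.3 CPM in the knockdown, with all knockdown libraries below the lowest control library. Its log2 fold change of -0.52 (SE 0.18, 95% interval -0.94 to -0.10) was not called (edgeR adjusted p = 0.130), and no alternative setting called it. The same separation of groups by CPM was seen in 30.4% of all genes tested. Of the reads of both genes together, ALDH2 took 48.6%, 29.5% and 41.7% in the control and 60.0%, 61.0% and 65.3% in the knockdown.

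ALDH1A1 (ENSG00000165092, chromosome 9) and ALDH1A3 (ENSG00000184254, chromosome 15) are cytosolic enzymes that make retinoic acid from retinal, and neither was prominent in these fibroblasts. ALDH1A3 had 16, 8 and 14 control counts and 17, 22 and 11 knockdown counts. Its 2.53, 1.83 and 3.70 CPM overlapped the 3.36, 4.78 and 2.95 CPM of the knockdown, and the 95% interval of the log2 fold change of 0.49 ran from -0.31 to 1.28 (edgeR adjusted p = 0.428). An antisense gene, ALDH1A3-AS1, overlaps ALDH1A3 and had 3 to 14 reads per library, and since the strand setting of the authors' counting is not known here, reads of the pair cannot be told apart. ALDH1A1 had 1 read in control replicate 3 and none in the other 5 libraries, where 3 reads would be 0.467 to 0.802 CPM, so no fold is given. The related ALDH1A2 had 3, 1 and 0 control reads and 4, 2 and 1 knockdown reads.

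CYP1B1 (ENSG00000138061, chromosome 2), a cytochrome P450 that hydroxylates oestradiol and activates polycyclic hydrocarbons, is a known target of the aryl hydrocarbon receptor. It had 77, 49 and 62 control counts and 112, 85 and 82 knockdown counts. At 12.2, 11.2 and 16.4 CPM against 22.2, 18.5 and 22.0 CPM the groups did not overlap, as in 30.4% of all genes tested. Control replicate 3 was the nearest to the knockdown. A log2 fold change of 0.66 (SE 0.17, 95% interval 0.26 to 1.06) missed the threshold (edgeR adjusted p = 0.0609). It was called in 5 of 16 alternative settings: by DESeq2 (adjusted p = 0.0462), by limma-voom (0.0461), without control replicate 3 (0.0396), when every gene with a read was tested (0.0258) and when only genes of the authors' table were tested (0.00305). Adjusted p-values over all 16 ranged from 0.00305 to 0.173. The opposite strand carries RMDN2, with 34, 27 and 13 control and 17, 14 and 11 knockdown counts, and CYP1B1-AS1, with 0 to 6 reads per library, to which the same limit applies.

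In the authors' deposited table, which lists 7 of the 9 genes, ADH1B had a log2 ratio of 2.50, FMO2 one of 3.20, ALDH2 one of 0.81 and CYP1B1 one of 0.67, and these 4 had an adjusted p under 0.05 there. The same held for 1400 of all 11638 genes of that table. The authors' deposited table gives CYP1B1 an adjusted p of 0.00562 and ALDH2 one of 0.00339. For ALDH1B1 the authors' deposited table has a log2 ratio of -0.52 and an adjusted p of 0.167.

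Levels can be compared between genes only per length, here as CPM per kilobase of the union of exons in GENCODE 29. In the control, the order from high to low was ADH5 (22.0 ± 2.14), ALDH1B1 (5.41 ± 1.19), CYP1B1 (2.20 ± 0.458), ALDH2 (1.15 ± 0.225), ADH1B (0.765 ± 0.164), ALDH1A3 (0.465 ± 0.164), FMO2 (0.194 ± 0.0721), FMO4 (0.131 ± 0.114) and ALDH1A1 (0.0309 ± 0.0536) CPM per kilobase (SD, n = 3). The library values of neighbours overlapped for ALDH2 and ADH1B, for ADH1B and ALDH1A3, for FMO2 and FMO4, and for FMO4 and ALDH1A1, so these pairs were not separated. ADH5 exceeded the control level of 95.3% of the 15426 protein-coding genes with a read, ALDH1B1 that of 76.2% and CYP1B1 that of 56.6%. In the knockdown, ADH1B stood at 4.30 ± 0.0552 CPM per kilobase, above ALDH1B1 at 3.75 ± 0.165 and CYP1B1 at 3.47 ± 0.344, and FMO2 stood at 1.77 ± 0.262, near ALDH2 at 2.00 ± 0.156. ADH1B passed from above 38.0% of protein-coding genes to above 71.4%, and FMO2 from above 26.1% to above 50.8%. Dividing by the longest transcript instead raised the control level of ADH1B to 1.54 and left ALDH2 at 1.17, so this pair changed places.

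**Figure D3:**
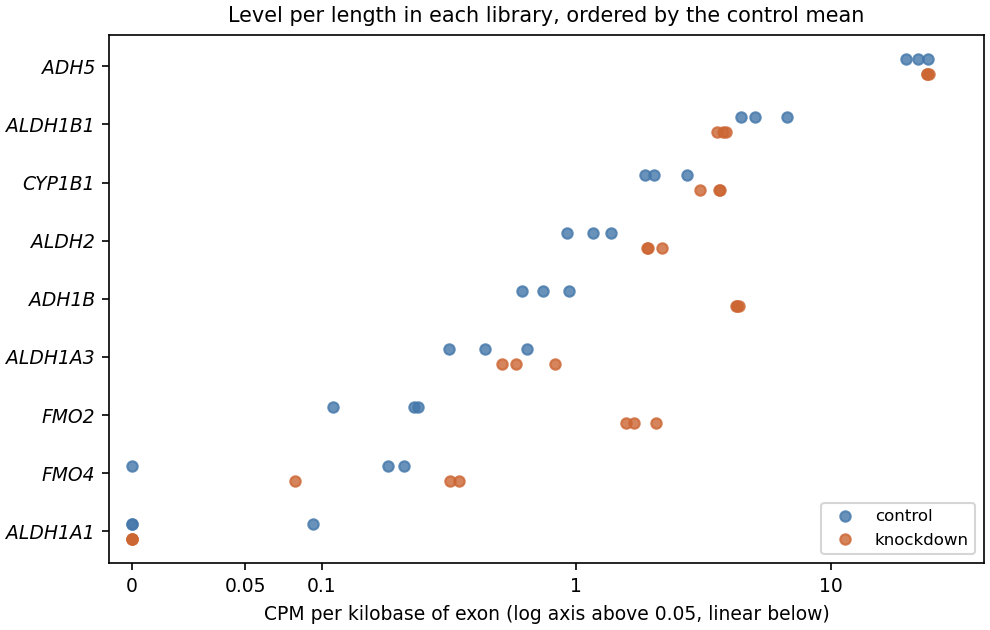
CPM per kilobase of exon (horizontal axis, logarithmic above 0.05 and linear below) of each gene in the 3 control and 3 knockdown libraries (points), ordered by the control mean. ADH5 lies highest in both groups, and ADH1B and FMO2 show the widest gaps between control and knockdown points.

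The wider families were read from lists of all genes of a name. Of 19 aldehyde dehydrogenase genes, 11 were tested; ALDH2 was called and 9 of the 11 had positive fold changes, with a median log2 of 0.28, where the median of all genes tested was 0.01. Among all 13445 genes tested, 8.21% were called and 6832 had positive fold changes, so the 1 call among 11 was near the general share. The summed level of the family overlapped between the groups, at 359 to 362 CPM in the control and 357 to 374 CPM in the knockdown. Its most abundant gene by reads, ALDH18A1, an enzyme of proline synthesis, was at 153 ± 7.25 CPM in the control and 123.2 ± 6.13 CPM in the knockdown (edgeR adjusted p = 0.0506), and DESeq2 and limma-voom called it. ALDH3A2, which oxidizes fatty aldehydes, and ALDH3B1 had log2 fold changes of 1.01 (SE 0.28) and 0.71 (SE 0.19), which were not called (edgeR adjusted p = 0.0750 and 0.0724). ALDH9A1, ALDH6A1, ALDH7A1 and ALDH16A1 had log2 fold changes from 0.06 to 0.35.

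Of 23 cytochrome P450 genes of families 1 to 3, only CYP1B1, CYP2U1 and CYP2R1 had enough reads to test, and 12 had no read in any library, CYP1A1 and CYP1A2 among them. CYP2U1, which hydroxylates long-chain fatty acids, fell from 24.7 ± 0.348 to 15.9 ± 2.72 CPM (SD, log2 fold change -0.63 with SE 0.13, adjusted p = 0.0360 by edgeR), a call lost in 6 of 16 alternative settings. For CYP2R1, which hydroxylates vitamin D, the log2 fold change was 0.47 with an SE of 0.19 (edgeR adjusted p = 0.219). Among the electron donors of these enzymes, POR, the cytochrome P450 reductase, and 5 genes of cytochrome b5 or its reductases were tested. EdgeR called none of them, where 8.21% of all genes tested were called. None had an unadjusted p under 0.05 and none was called by DESeq2 or limma-voom.

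Other enzymes that handle aldehydes and ketones went both ways. AOX1, aldehyde oxidase, a molybdenum and flavin enzyme of the cytosol, had 228, 174 and 147 control counts and 45, 29 and 25 knockdown counts. It fell from 38.2 ± 1.93 to 7.30 ± 1.40 CPM, 5.19-fold lower (log2 fold change -2.37 with SE 0.14, adjusted p = 0.000758 by edgeR), and kept its call in all 16 alternative settings. MAOA, a mitochondrial amine oxidase, was not called at a log2 fold change of 0.82 with SE 0.24 (edgeR adjusted p = 0.0910). AOX1 was the 1 gene called of 4 tested in its list, where 8.21% of all genes tested were called. AKR1C1, an aldo-keto reductase that reduces steroid ketones, rose 2.54-fold, from 6.02 ± 1.05 CPM in the control to 15.4 ± 1.57 CPM in the knockdown (edgeR adjusted p = 0.00817). It was the 1 gene called of 10 aldo-keto and carbonyl reductases tested, near the 8.21% called of all genes tested. Its call was lost with a replicate block, and near-identical copies in the same cluster make its counts uncertain.

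**Figure D4:**
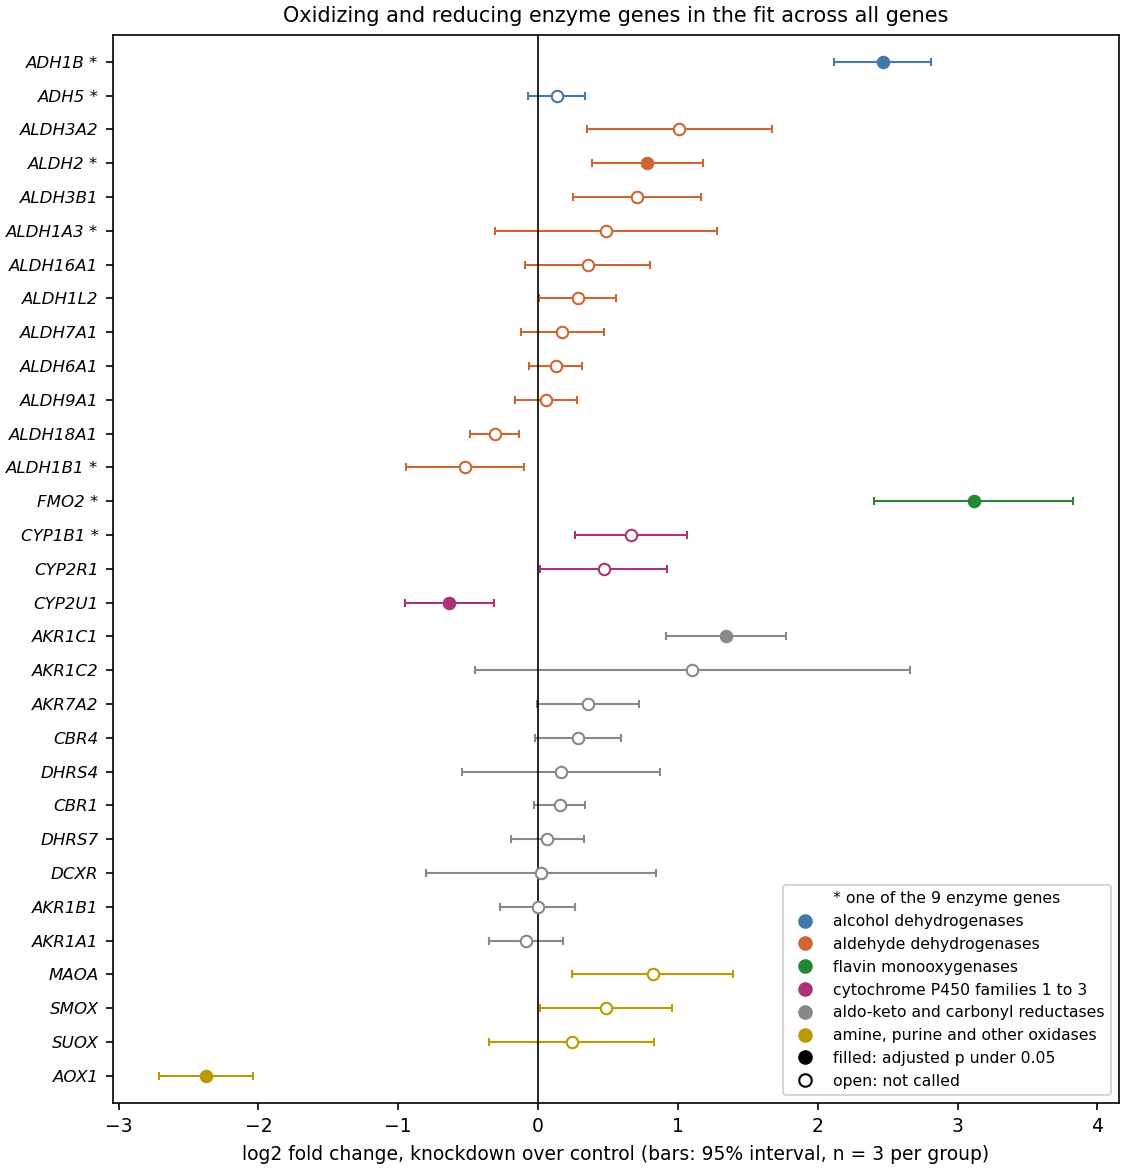
Log2 fold change, knockdown over control, with its unadjusted 95% interval (horizontal axis) for each tested gene of 6 enzyme lists (rows, coloured by list; filled points passed an adjusted p under 0.05 and asterisks mark the 9 genes). ADH1B and FMO2 lie farthest to the right and AOX1 farthest to the left.

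Retinoid and aryl hydrocarbon receptor pathways were read from lists, again beside 8.21% called of all genes tested. Of 25 genes of retinoid synthesis, transport and breakdown, 6 were tested and edgeR called none, with 2 at an unadjusted p under 0.05 and none by DESeq2 or limma-voom; RDH10, a retinol dehydrogenase, had 124 ± 11.1 and 129 ± 8.40 CPM (n = 3 per group). RXRA, a partner of the retinoic acid receptors, rose 1.52-fold (log2 fold change 0.61, SE 0.11, edgeR adjusted p = 0.0216), the 1 gene called of 9 receptors and cofactors tested, a call that 6 of 16 alternative settings did not give. Among 15 genes commonly induced by retinoic acid, 4 were tested and 2 called, in opposite directions. RARRES2, which encodes chemerin, had 6, 2 and 2 control and 20, 17 and 9 knockdown counts, a ratio of summed counts of 4.97 with a counting interval of 2.48 to 11.1; it rose (edgeR adjusted p = 0.0163), passed the filter through the knockdown libraries and was not called in 5 of 16 alternatives. TGM2, a transglutaminase, fell 1.61-fold (edgeR adjusted p = 0.00303). RARB, the receptor gene that responds to retinoic acid, had 2 reads in all 6 libraries together, and CYP26B1, which breaks retinoic acid down, had 10, 1 and 1 control reads and none in the knockdown.

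Of the 13 genes of the aryl hydrocarbon receptor pathway, CYP1B1 among them, 9 were tested and edgeR called none, with 3 at an unadjusted p under 0.05 and 1, CYP1B1, by DESeq2 and by limma-voom. AHR, the receptor, was at 79.3 ± 5.11 and 69.7 ± 8.71 CPM, AHRR, its repressor, at 27.9 ± 3.19 and 34.2 ± 1.97 CPM, and NQO1, a quinone reductase, at 146 ± 2.37 and 165 ± 4.49 CPM (control and knockdown, n = 3 each). Of 9 genes that handle formaldehyde and acetaldehyde, ALDH2 was the 1 called of 7 tested, where 8.21% of all genes tested were called. ESD, which acts after ADH5 in formaldehyde oxidation, was at 38.0 ± 2.28 and 34.6 ± 4.95 CPM (edgeR adjusted p = 0.538).

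Markers of other cell types were read from lists, those of adipocytes and hepatocytes first, as ADH1B is abundant in adipose tissue and liver. Of 12 adipocyte markers, ADIPOQ and LEP had no read in any library, 2 were tested, PPARG and CD36, and edgeR called none (none at an unadjusted p under 0.05, none by DESeq2 or limma-voom); their summed level was 18.5 to 21.9 CPM in the control and 18.5 to 24.1 CPM in the knockdown. The 10 hepatocyte markers summed to 0.475 to 1.32 CPM and 0.652 to 2.41 CPM, and FGB had no read. The 10 endothelial markers summed to 67.4 to 72.5 CPM in the control and 143 to 149 CPM in the knockdown, nearly all of it from TEK, a receptor kinase, at 62.3 ± 2.06 and 132 ± 4.85 CPM. TEK and KDR were called higher, where 3.90% of all genes tested were higher. KDR had 5 control and 111 knockdown reads in all and passed the filter only through the knockdown. FLT1, the third tested, was not called at a log2 fold change of -0.42, and VWF had 17 control and 8 knockdown reads. CDH5, TIE1, CLDN5 and ERG had 1 to 2 reads each in all 6 libraries together, and PECAM1 and EMCN had none. The 12 epithelial markers summed to 28.1 to 30.7 CPM in the control and 7.91 to 12.2 CPM in the knockdown, with KRT18 called lower and SFTPB and SCGB1A1 without a read. The 10 blood cell markers summed to 14.2 to 19.3 and 14.5 to 16.3 CPM, and CD3E, MS4A1 and HBA1 had no read. The part of the endothelial, epithelial and fibroblast markers in the enzyme values was not tested.

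Over the 6 libraries, the genes whose log2 level followed FMO2 most closely, by Pearson correlation of log2(CPM + 1), were ZFP36, a protein that destabilizes messenger RNA (r = 0.999), THRA, a thyroid hormone receptor (r = 0.998), and ADARB1, an RNA-editing enzyme (r = 0.998). With 6 libraries in 2 groups, such values reflect the shared difference between groups and are given as a description. ZFP36 was not called, at a log2 fold change of 0.56 (edgeR adjusted p = 0.169). ADARB1 had 615, 431 and 343 control and 701, 636 and 494 knockdown counts, a log2 fold change of 0.51 (SE 0.07) against the 3.12 of FMO2, and THRA, with a log2 fold change of 0.48, was not called in 8 of 16 alternatives.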

How the data were processed

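RNA was measured by sequencing in 6 libraries of IMR90 cells, 3 per group, with groups and replicate numbers taken from the sample titles. Per the labels' protocols, RNA was depleted of ribosomal RNA, second strands held dUTP, and 1 sequencing lane was used. The deposited counts are whole, unnormalized reads for each Ensembl gene identifier. CASAVA 1.7, GSNAP and HTSeq on hg19 stand in the submitters' processing notes; neither the annotation nor the strand setting is given in the sources used here. Of the reads listed, 11.9% to 13.7% were assigned to genes, and lines that name no gene were left out. The authors' deposited table (DESeq 1.10.1 per the submitters' processing notes) holds, per the file headers, mean signal (counts over size factors), a fold ratio, its log2, and p-values before and after adjustment.

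Genes were filtered with filterByExpr (minimum count 10), scaled with TMM and tested with edgeR 4.0.16 (glmQLFit, glmQLFTest; group as the only term) in R 4.3.3; DESeq2 1.42.0 and limma 3.58.1 were alternatives. The SE is the log2 fold change over the square root of F, and 95% intervals of fold changes are unadjusted. Alternatives were other scalings, other filters on low counts, only genes of the authors' table, a replicate block, leaving out the 20 most abundant genes or 1 library, and other thresholds. Ratios of low counts have exact conditional intervals. Members and lists were chosen with earlier results of these data known. Named genes are the 9 members, the targeted gene, list genes past the threshold, 2 protein-coding neighbours on each side of a member, and the 3 genes most like FMO2, the called member with the largest fold change; other genes named in a list were chosen after their values were seen. Symbols and exon lengths came from GENCODE 29, which is on another build than the files, and promoters from RefSeq (GRCh38.p14). Motifs were also chosen after the values were seen. On simulated counts for 13196 genes of this comparison, edgeR called 0% of genes given a log2 change of 0.5, 28.6% of those given 1 and 100% of those given 2, with 3 of 88 calls false. The simulation gave all genes the same coefficient of variation, 24.9%, and changed only 67, 63 and 67 of them. In the real data the spread differs between genes, and 1104 were called, ANXA1 at -0.40 among them. The simulated rates therefore do not tell what share of real changes was found.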

Additional observations from a re-analysis of the deposited data

How the results depend on the processing

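Calls of ADH1B and FMO2 held in all 16 alternative fits, with log2 fold changes from 2.33 to 2.66 and from 2.89 to 3.28, and none of the 7 members tested changed sign in any of them. Counts of members called stayed between 2 and 4. The number of genes called overall moved from 1104 to 2042 when only genes of the authors' table were tested, to 317 and 1881 at adjusted p thresholds of 0.01 and 0.1, and to between 427 and 564 with 1 library left out. Of the aldehyde dehydrogenases, 1 was called in the fit reported, 2 when every gene with a read was tested, with DESeq2 and with limma-voom, 4 with genes of the authors' table only and at a threshold of 0.1, 0 at 0.01, and 0 to 1 with 1 library left out. Same-numbered libraries of the groups had correlations of deviations from the group mean of -0.03, -0.02 and -0.17, and differently numbered ones from -0.14 to 0.17. Deviations from a mean of 3 libraries depend on each other, so these values cannot decide whether replicates were paired. With a replicate block, 416 genes, 2 members and 0 aldehyde dehydrogenases were called. The cause of these shifts was not tested. Depth limits FMO4, ALDH1A1 and ALDH1A3 most.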

Other observations

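Of the 32 protein-coding genes that stand next or next but one to a member and are not members themselves, 18 had enough reads to test and 4 were lower in the knockdown (edgeR adjusted p under 0.05), where 4.31% of all genes tested were lower. CDC42EP3, an effector of the GTPase CDC42 near CYP1B1, fell from 366 ± 6.58 to 191 ± 14.8 CPM (n = 3 per group, log2 fold change -0.94, SE 0.08, edgeR adjusted p = 0.00173) and kept its call in all 16 alternative fits. ANXA1, the annexin gene beside ALDH1A1, had a log2 fold change of -0.40 (edgeR adjusted p = 0.0132) and lost its call in 6 of 16 fits. EIF4E, the cap-binding translation factor near ADH5, and PRRC2C, beside FMO4, had log2 fold changes of -0.46 and -0.31, and each lost its call in 9 of 16. The genes around ADH1B, namely ADH6, ADH1A, ADH1C and ADH7, had 0 to 3 reads per library. FMO1, beside FMO2, had no read in any library.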
